A study of Arabidopsis thaliana with 11 samples.

Results

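Secretory and vesicle trafficking genes of Arabidopsis thaliana, accession Landsberg erecta, were examined in stigmas, ovaries and whole seedlings. Members were the probe sets whose single annotated gene symbol begins with SEC, EXO70, PRA1, SYP, VAMP, RAB or VPS and goes on with a number or with a letter and a number. PRA1.E and PRA1.H, whose symbols end in a letter after PRA1, were kept, and the symbol SEC without a number (SECRET AGENT) was not. The rule found 30 probe sets for 30 genes, of 13513 probe sets with 1 annotated gene and 22746 in all. They were 10 SEC, 9 PRA1, 1 RAB and 10 VPS symbols. None was an EXO70, SYP or VAMP symbol and none encodes a coat protein of transport vesicles, so neither the EXO70 subunits of the exocyst nor the syntaxins nor the vesicle coats are described by the members. By role they were 6 exocyst genes, 9 PRA1 genes, 9 ESCRT genes, 2 plastid Sec genes and 1 each of a SNARE (SEC22), a SNARE-binding SM protein (SEC1B), a Rab GTPase (RAB6A) and a Rab activator (VPS9B).

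There were 3 stigma, 4 ovary and 4 seedling samples, each on 1 Affymetrix ATH1 array read in 1 colour. Stigmas and ovaries were cut apart from pistils of flowers emasculated at stage 8 and taken 1 day later, and seedlings were whole plants after 10 days on Murashige and Skoog plates. The Landsberg erecta background is shared by all 3 groups, and the labels name no transgene, agent or pollination. Groups rest on the sample titles, since the stigma and ovary samples carry 1 and the same description. Values are the deposited linear signals, which the authors had scaled to a common mean per array. Differences are of log2(signal + 17.2), where 17.2 is the 10th percentile of all values, so that a difference of 1 is 2-fold and those of dim transcripts are understated. Testing was limited to probe sets above 144.2, the 40th percentile of all signals, on 3 arrays or more. Of 15524 tested probe sets, those with an adjusted p under 0.05 in limma and a difference of at least 2-fold were called higher or lower.

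The tissue labels were checked on textbook genes. SLR1 (AT3G12000), a stigma glycoprotein gene, ranged from 12910.4 to 14659 in stigma, from 124 to 1832 in ovary and from 46.4 to 68.4 in seedling. Ovary 1 held the highest of these ovary values, and the other ovary arrays stayed at or below 316. The summed signal of 5 pollen genes (ACT12, ANX1, ANX2, AT59 and TUA1) ranged from 626.0 to 1001 in stigma, 549 to 742 in ovary and 600.4 to 1057 in seedling, and TUA1 made up most of it. AT59, a pollen pectate lyase gene, was 82.8 to 128 in stigma, 7.1 to 56.4 in ovary and 5.2 to 9.1 in seedling, all under the test filter, with stigma above the others. ANX2 reached 154 on stigma 3 against 40.8 or less in ovary and 38.7 or less in seedling. ACT12 was 55.6 and 54.6 on stigma 2 and 3 and lower on all other arrays, and ANX1 stayed at or below 11.6. The part of pollen RNA in the stigma values was not tested. For the GAPDH control, 3′ signal over 5′ signal (log2, a measure of RNA quality) was 1.09 to 2.26 in stigma, 0.69 to 1.10 in ovary and 0.25 to 0.55 in seedling, highest on stigma 1. Arrays were scanned in 4 periods. Period A held stigma 1, ovary 1 and ovary 2, period B the other stigma and ovary arrays, and periods C and D the seedlings alone. Chip lot 1 held the arrays of period A and seedling 1, lot 2 those of period B and seedling 2, and lot 3 seedlings 3 and 4. Between stigma and ovary, lots 1 and 2 are thus the same split as periods A and B. In whole tissue, fewer cells of a type and less RNA per cell cannot be told apart.

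Proteins bound for the cell surface leave the endoplasmic reticulum, pass through the Golgi and arrive in vesicles at the plasma membrane. There the exocyst, a complex of several subunits, tethers the vesicle, and SNARE proteins, helped by SM proteins, fuse it. Rab GTPases mark each membrane on the route, and PRA1 proteins are small membrane proteins that bind prenylated Rabs. The ESCRT complexes work on the return route, where they sort ubiquitinated membrane proteins into vesicles inside multivesicular endosomes on their way to the vacuole. Stigma papillae are secretory cells, and in Arabidopsis and Brassica the exocyst of the papilla is needed to accept compatible pollen.

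The largest difference was that of PRA1.B4, which was 3.79-fold higher in stigma than in ovary and 11.5-fold higher than in seedling. Among ESCRT genes, 5 of 8 tested were higher in stigma than in ovary by an adjusted p under 0.05, close to 2-fold each, and VPS2.2 was lower. Those 6 are 75.0% of the tested ESCRT genes, and 34.7% of all tested probe sets passed the same adjusted p. The ESCRT share was above that of all tested probe sets in this comparison only. Between stigma and seedling 4 of 8 passed, beside 49.2%, and between ovary and seedling 1 of 8, beside 51.9%. With the GAPDH ratio, highest in stigma, as a covariate, only VPS24.1 and VPS2.2 of the 6 kept an adjusted p under 0.05 between stigma and ovary. The ratio differed by tissue, so its part and that of tissue cannot be fully told apart. The covariate also cost precision, as for PRA1.B4 between stigma and ovary (SE 0.22 without and 0.30 with it). Of the ESCRT genes that lost their adjusted p between stigma and ovary, VPS22 went from 0.97 to 0.95 and VPS20.1 from 0.89 to 0.74. The difference of VPS2.1 went from 0.87 to 0.61 and that of VPS60.2 from 1.04 to 0.82. Against seedling, VPS2.1 went from 0.55 to 0.12, VPS20.1 from 0.91 to 0.65 and VPS60.2 from 0.96 to 0.60. VPS24.1, which kept its adjusted p there, went from 1.28 to 1.11. No exocyst gene was called in any comparison in the fit without blocks, and SEC5B was called lower in stigma than in seedling with chip lot as a block. By the adjusted p alone, 2 of the 6 exocyst genes differed between stigma and ovary, beside 34.7% of all tested probe sets. Of the 30 members, 28 passed the filter on dim probe sets and 7 were called in at least 1 comparison. The share of all tested probe sets called in at least 1 comparison was not computed. By comparison, 15.8% of them were called between stigma and ovary, 26.1% between stigma and seedling and 22.8% between ovary and seedling. Called members were PRA1.B4, PRA1.B6, PRA1.F1, VPS2.2, VPS24.1, VPS60.2 and SECE1, and the other 21 tested members were called in none of the comparisons in the fit without blocks.

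Between stigma and ovary, 2 members (7.14%) were called higher in stigma and 1 (3.57%) lower, against 6.27% and 9.51% of all tested probe sets. With the adjusted p alone, at any fold, 9 members were higher and 2 lower, which is 39.3% of the tested members, beside 34.7% of all tested probe sets. In either direction 10.7% were called, beside 15.8%. The arrays of the 2 tissues did not overlap for 12 members (42.9%), and for 45.2% of all probe sets. Between stigma and seedling, 2 members (7.14%) were called higher and 3 (10.7%) lower in stigma, against 11% and 15.1% of all tested probe sets. In either direction this was 17.9% beside 26.1%. With the adjusted p alone 8 members were higher and 4 lower (42.9%, beside 49.2%), and 13 did not overlap (46.4%, beside 51.4%). PRA1.B4 was the 1 member called higher in stigma than in both other tissues, as were 4.38% of all tested probe sets, and no member was called lower than in both, as were 3.90%. Between ovary and seedling, 1 member (3.57%) was called higher and 1 (3.57%) lower in ovary, against 11.1% and 11.7%. In either direction this was 7.14% beside 22.8%. With the adjusted p alone 4 members were higher and 4 lower (28.6%, beside 51.9%), and 6 did not overlap (21.4%, beside 47.6%). The median difference of members was 0.09 for stigma minus ovary, 0.08 for stigma minus seedling and −0.13 for ovary minus seedling, beside −0.07, 0.04 and 0.12 over all tested probe sets. The share of members called was thus near the background or below it, and what follows describes single genes. With the GAPDH ratio as a covariate, 4 of the 11 members with an adjusted p under 0.05 between stigma and ovary kept it (PRA1.B4, PRA1.E, VPS2.2 and VPS24.1). Between stigma and seedling 3 of 12 kept it (PRA1.B4, PRA1.B6 and VPS24.1), and between ovary and seedling 6 of 8. The comparisons share arrays, so their values for a gene are given side by side and are not independent.

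**Figure D1:**
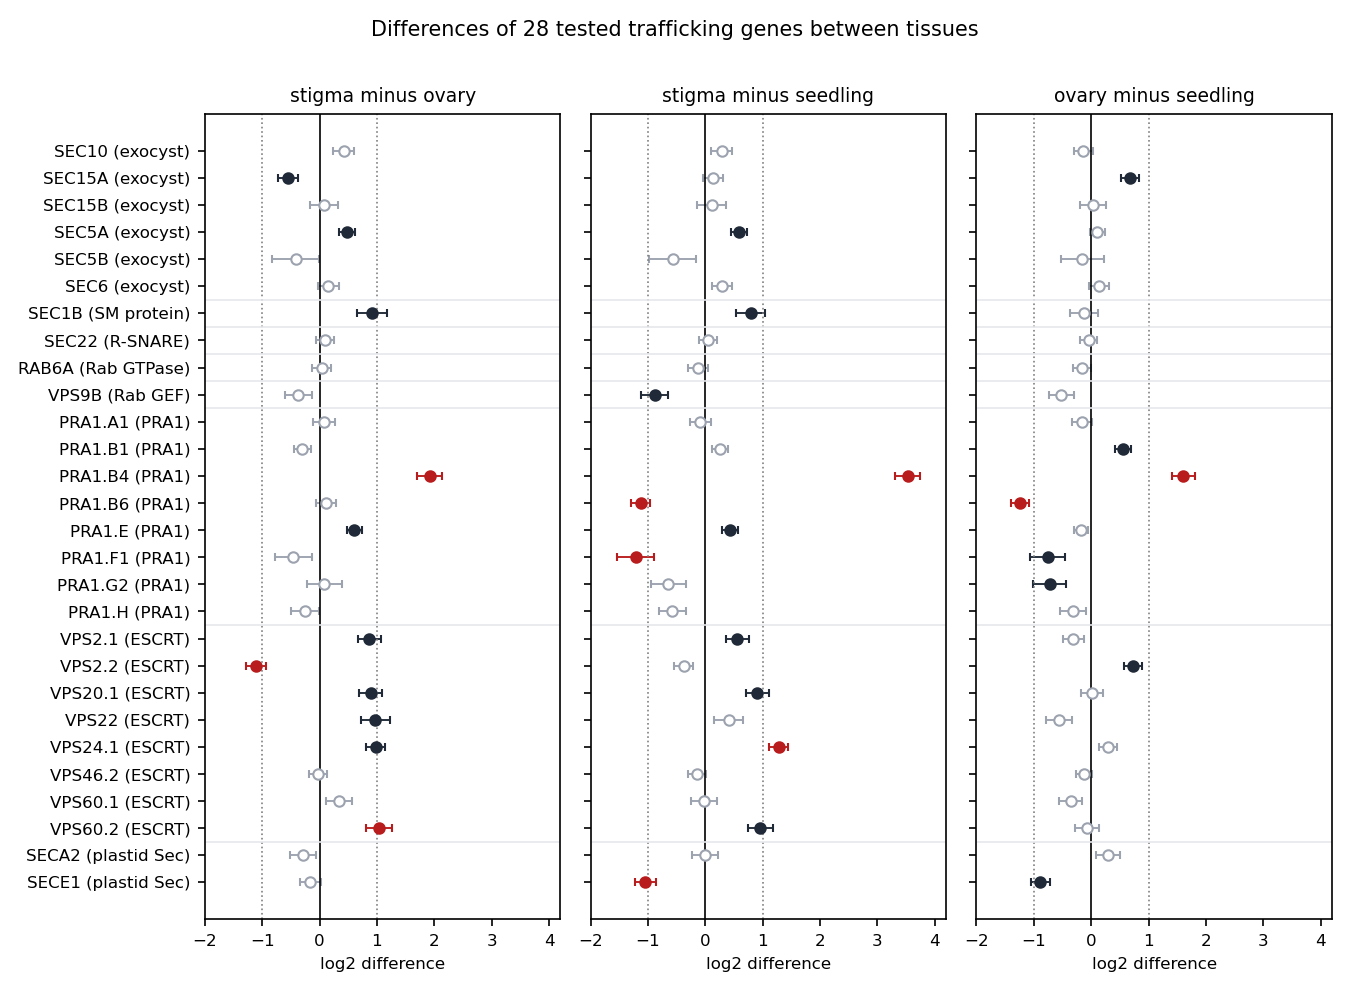
Each point is the log2 difference of 1 of 28 tested genes between 2 tissues, with its standard error as the bar, in the panels stigma minus ovary, stigma minus seedling and ovary minus seedling. Red points were called, dark points had an adjusted p under 0.05 but less than 2-fold, open points had neither, and dotted lines mark 2-fold; PRA1.B4 lies farthest to the right in all 3 panels.

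PRA1.B4 (AT2G38360) encodes a PRA1 protein of the B subfamily. Its signal was 3557, 3908 and 3291 on the stigma arrays, 1034, 1197, 751 and 804 on the ovary arrays and 418, 282, 309 and 203 on the seedling arrays. The tissues were ordered stigma, ovary, seedling with no overlap between neighbours. The log2 difference was 1.92 (SE 0.22, adjusted p = 2.3e-05) for stigma minus ovary. For stigma minus seedling it was 3.53 (SE 0.22, adjusted p = 3.06e-08), and for ovary minus seedling 1.61 (SE 0.20, adjusted p = 2.44e-05). Within scanning periods A and B the difference between stigma and ovary was 1.66 and 2.18. Every alternative that was run kept all 3 calls of PRA1.B4.

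The other B subfamily members did not follow it. PRA1.B1 (AT3G56110) had 1522, 1545, 1283 and 1583 in ovary and 897, 1141, 991 and 978 in seedling. Ovary lay above seedling on every array, by 0.56 (SE 0.13, adjusted p = 0.00361), less than 2-fold, and stigma, with 1054, 1136 and 1426, overlapped both. PRA1.B6 (AT5G07110) was highest in the seedling, with 455, 458, 430.1 and 386. Its signal was 192, 229.7 and 149 in stigma and 175, 177, 196 and 148 in ovary, and both pistil parts lay below all seedlings. PRA1.B6 was called lower in both, with differences of −1.13 (SE 0.17, adjusted p = 0.000119) for stigma minus seedling and −1.24 (SE 0.16, adjusted p = 3.11e-05) for ovary minus seedling. Both calls ended with the larger pseudocount (−0.79 and −0.86), and the call for stigma also ended without stigma 3 (−0.98).

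PRA1.F1 (AT1G17700) had 64.5, 103 and 149 in stigma, 74.8, 218, 180.4 and 143 in ovary and 198, 264, 334 and 247 in seedling. Stigma lay below every seedling, while ovary overlapped both, and stigma 1 and ovary 1 were the lowest arrays of their tissues. The stigma minus seedling difference was −1.22 (SE 0.32, adjusted p = 0.00682). The call ended with the GAPDH ratio as a covariate (−0.91, adjusted p = 0.266), without stigma 1 (−0.95) and with the larger pseudocount (−0.70). It also ended without stigma 1, ovary 1 and seedling 4 together (−0.97). Within chip lots 1 and 2, each with 1 seedling array, the difference was −1.40 and −0.99. PRA1.E (AT1G08770) was highest in stigma, with 851, 894 and 991, against 534, 633, 584 and 619.8 in ovary and 626, 602, 720.4 and 747 in seedling. All stigma arrays lay above all others, by 0.61 (SE 0.14, adjusted p = 0.00357) over ovary and 0.43 (SE 0.14, adjusted p = 0.0176) over seedling, both under 2-fold.

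The remaining PRA1 genes were not called in the fit without blocks. PRA1.G2 (AT5G56230) ranged from 68.1 to 246 over all arrays. Its ovary minus seedling difference was −0.73 (SE 0.28, adjusted p = 0.0454), and that of PRA1.F1 was −0.76 (SE 0.30, adjusted p = 0.0476), both with overlapping arrays and under 2-fold. PRA1.A1 (AT5G02040) ranged from 499 to 974 and PRA1.H (AT4G27540) from 113 to 317, with no adjusted p under 0.05 in the fit without blocks. For PRA1.H, stigma minus seedling was −0.57 in that fit, −1.10 within chip lot 1 and −0.07 within lot 2. Stigma minus ovary for PRA1.H was −0.95 within scanning period A and 0.12 within period B. Lot 1 and period A held 1 stigma array. PRA1.G1 (AT1G55640) was not tested, since it never passed 144.2. Its signal was 11.2 to 30.7 in stigma, 14.4 to 35.6 in ovary and 43.6 to 109 in seedling.

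**Figure D2:**
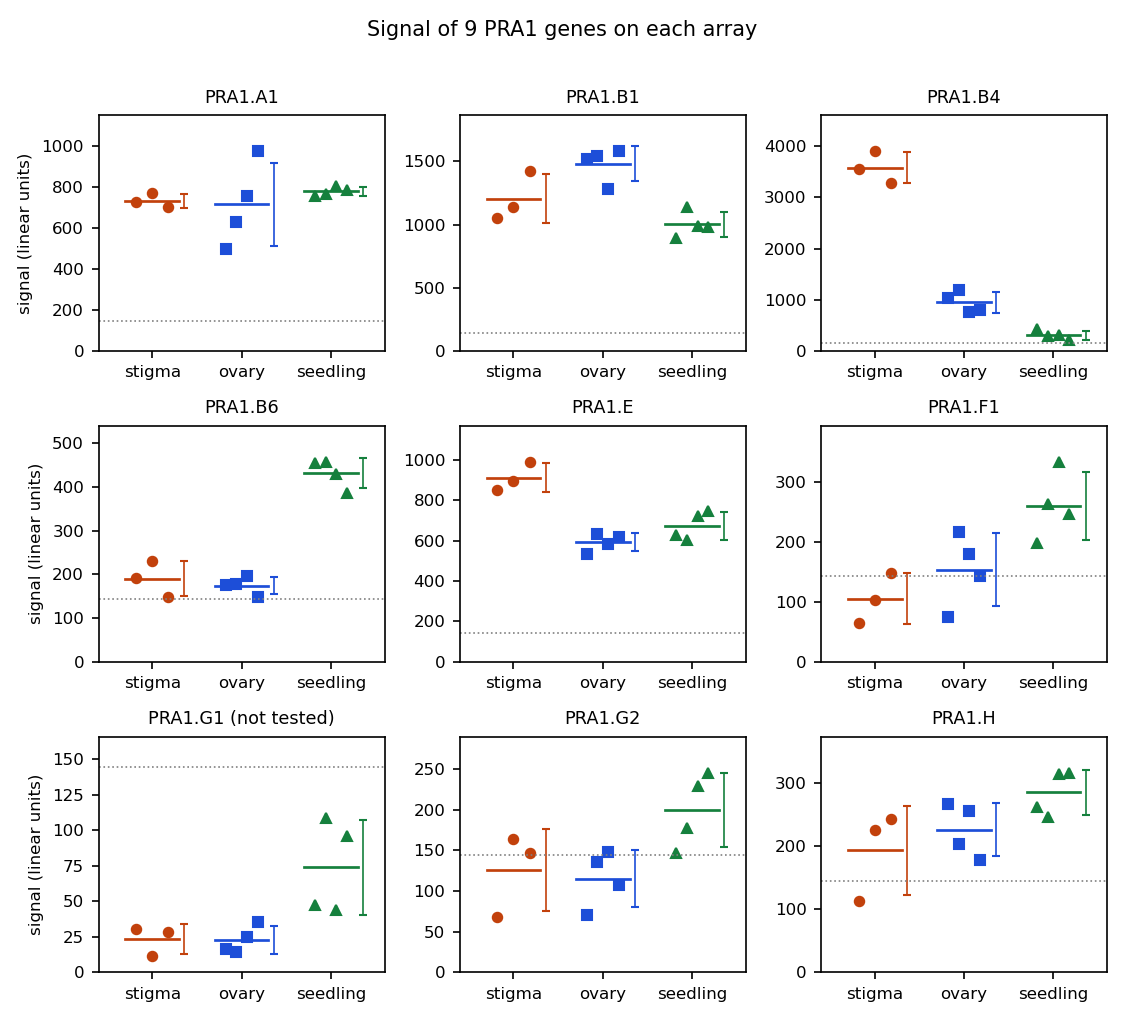
Each panel shows the signal (linear units, axis from 0) of 1 of 9 PRA1 genes on every array, with the tissue mean as a line, the standard deviation as the bar and the filter of 144.2 as a dotted line. PRA1.B4 is highest in stigma, PRA1.B6 is highest in seedling, and PRA1.G1 stays under the filter on all 11 arrays.

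Of the 9 ESCRT genes, VPS24.2 was too dim to test and 8 were tested. Their median difference between stigma and ovary was 0.88, beside −0.07 over all tested probe sets. The arrays of these tissues did not overlap for 6 of 8 (75.0%), beside 45.2% of all tested probe sets. Stigma and seedling arrays did not overlap for 4 of 8, beside 51.4%, with a median difference of 0.48 beside 0.04. Ovary and seedling arrays did not overlap for 1 of 8, beside 47.6%, with a median difference of −0.10 beside 0.12. VPS24.1 (AT5G22950) encodes a subunit of ESCRT-III, the filament that cuts vesicles off into the endosome. Its signal was 1222, 1019 and 1249 in stigma, 659, 632, 462 and 579.7 in ovary and 508, 383, 469.5 and 526 in seedling. Stigma lay above both other tissues on every array, which overlapped each other. The difference was 1.28 (SE 0.16, adjusted p = 2.59e-05) for stigma minus seedling and was called; it was 0.98 (SE 0.16, adjusted p = 0.00047) for stigma minus ovary, just under 2-fold. In 11 of 26 alternatives the latter passed 2-fold, with values between 0.85 and 1.10 over all of them. The alternatives overlap, so such counts are not counts of independent checks.

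VPS60.2 (AT5G04850), a relative of the ESCRT-III subunits, had 590.1, 535 and 423 in stigma, 336, 243, 198 and 205 in ovary and 213, 198, 334 and 294 in seedling. Stigma again lay above all other arrays. The difference was 1.04 (SE 0.23, adjusted p = 0.00299) for stigma minus ovary, which was called, and 0.96 (SE 0.23, adjusted p = 0.00307) for stigma minus seedling, which was not. The latter was called in 7 of 24 alternatives, among them chip lot as a block (1.3, adjusted p = 0.000142) and scanning period as a random block (1.01). The call against ovary ended with the larger pseudocount (0.77), with the GAPDH ratio as a covariate (0.82, adjusted p = 0.06) and without ovary 3 (0.95), ovary 4 (0.97) or stigma 1 (0.94).

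VPS2.1 (AT2G06530), another ESCRT-III subunit gene, had 1456, 977 and 1067 in stigma and 709, 645, 506 and 643 in ovary. VPS20.1 (AT5G63880), the subunit that starts the ESCRT-III filament, had 683, 702 and 547 in stigma and 419, 392, 317 and 247 in ovary. VPS22 (AT4G27040), a subunit of ESCRT-II, had 1279.5, 1736 and 1154 in stigma and 824, 772, 609 and 583 in ovary. In each of these 3 genes the stigma arrays lay above the ovary arrays. The differences were 0.87 (SE 0.20, adjusted p = 0.00399) for VPS2.1, 0.89 (SE 0.20, adjusted p = 0.00409) for VPS20.1 and 0.97 (SE 0.25, adjusted p = 0.00824) for VPS22, all short of 2-fold. With the GAPDH ratio as a covariate the 3 differences were 0.61, 0.74 and 0.95, with adjusted p = 0.0913, 0.0657 and 0.0624. The difference of VPS22 passed 2-fold and was called in 11 of 26 alternatives, among them scanning period as a block (1.003). Against the seedling, VPS20.1 differed by 0.91 (SE 0.20, adjusted p = 0.00226) without overlap and VPS2.1 by 0.55 (SE 0.20, adjusted p = 0.0322) with overlap. The difference of VPS20.1 from seedling was called with chip lot as a block (1.16, adjusted p = 0.00044). VPS22 ran from 662 to 1542 over the seedlings and overlapped the stigma arrays.

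VPS2.2 (AT5G44560), the second VPS2 gene on the list, went the other way. Its signal was 239.9, 221 and 223 in stigma, 486, 406, 619 and 555 in ovary and 335, 334, 278 and 265 in seedling. Ovary lay above and stigma below all other arrays. The stigma minus ovary difference was −1.11 (SE 0.17, adjusted p = 0.00022) and was called lower, and ovary minus seedling was 0.73 (SE 0.16, adjusted p = 0.00158). The call ended, under 2-fold, with the larger pseudocount (−0.82) and with quantile scaling (−0.99). Within period A the difference was −0.84, and chip lot 1, with the same stigma and ovary arrays, gave the same value. VPS2.1 and VPS2.2 thus had differences of opposite sign between stigma and ovary, while the difference between the genes was not itself tested.

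The other ESCRT genes showed no difference past the threshold. VPS46.2 (AT1G73030), an ESCRT-III relative also known as CHMP1A, had 1414 ± 39.9 (SD, n = 3) in stigma and 1434 ± 82.5 (SD, n = 4) in ovary, a difference of −0.019 with a 95% interval of −0.36 to 0.32. VPS60.1 (AT3G10640) had 287 to 381 in stigma and 209 to 318 in ovary, which overlapped. VPS24.2 (AT3G45000) ranged from 4.5 to 28.7 over all arrays, far under the filter.

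The 5 ESCRT genes that were higher in stigma shared an order among the ovary arrays. In 5 of 5, ovary 1 was the highest ovary array and both ovary arrays of scanning period A lay above both of period B. For VPS2.1 this order rests on 645 on ovary 2 against 643 on ovary 4. How many of all tested probe sets share the order was not counted, so it is not shown to be particular to these genes. Ovary 1 was also the ovary array with the most SLR1 signal, and the part of stigma RNA in the ovary values was not tested. The stigma minus ovary difference within periods A and B was 0.90 and 1.10 for VPS24.1, 1.0 and 1.17 for VPS60.2, and 1.09 and 0.82 for VPS2.1. It was 0.73 and 1.10 for VPS20.1, 0.67 and 1.22 for VPS22, and −0.84 and −1.34 for VPS2.2. The stigma and ovary arrays of each of these genes did not overlap. The direction within both periods was thus fixed in advance and is no separate support. Period A held 1 stigma array, whose spread was taken from the other groups.

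**Figure D3:**
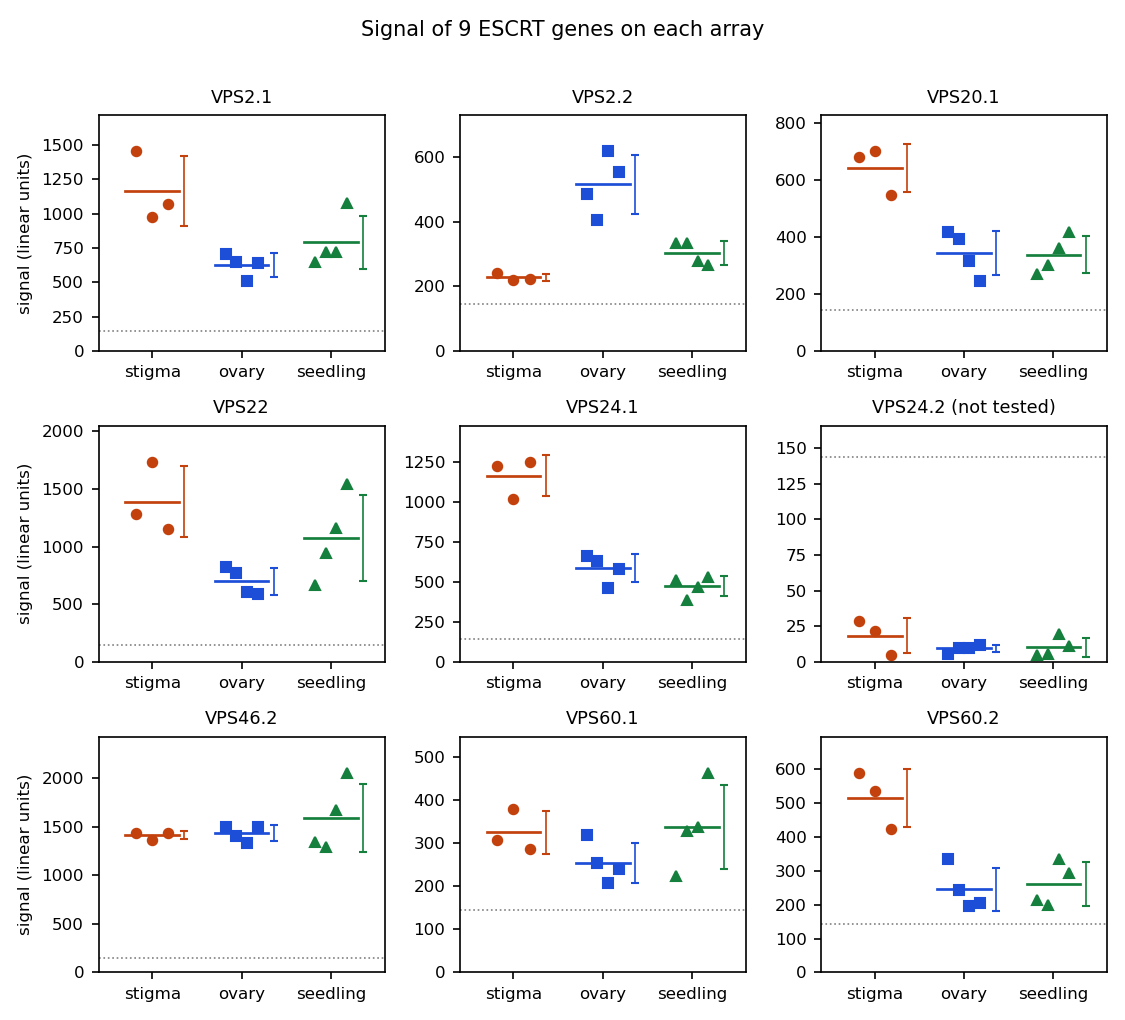
Each panel shows the signal (linear units, axis from 0) of 1 of 9 ESCRT genes on every array, with the tissue mean as a line, the standard deviation as the bar and the filter of 144.2 as a dotted line. Stigma lies above ovary for VPS2.1, VPS20.1, VPS22, VPS24.1 and VPS60.2 and below it for VPS2.2, and VPS46.2 is level.

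**Figure D4:**
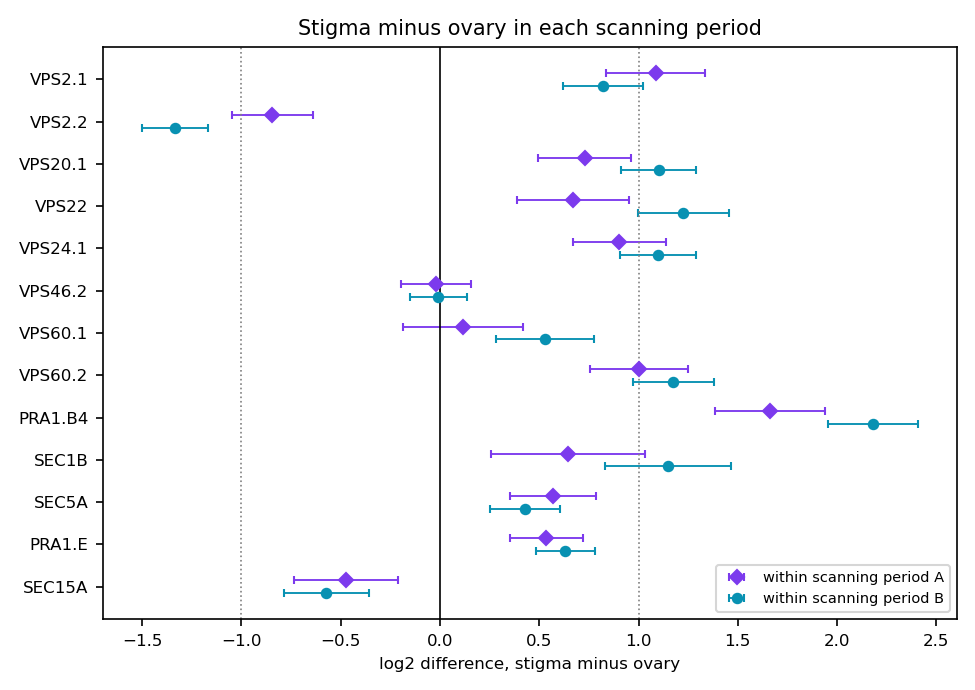
Points are log2 differences, stigma minus ovary, fitted within scanning period A (diamonds) and period B (circles) for the 8 tested ESCRT genes and for PRA1.B4, SEC1B, SEC5A, PRA1.E and SEC15A, with standard errors as bars and dotted lines at 2-fold. Every gene has the same sign in both periods, and VPS46.2 is near 0 in both. For genes other than VPS46.2 and VPS60.1, stigma and ovary arrays did not overlap, so the sign was fixed in advance.

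All 6 exocyst genes were tested and none was called in the fit without blocks, with differences between stigma and ovary from −0.55 to 0.48. Of all tested probe sets, 15.8% were called between these 2 tissues, and whether 0 of 6 differs from that share was not tested. With the adjusted p alone 2 of 6 passed, beside 34.7%, and 3 of 6 did not overlap, beside 45.2%. Between stigma and seedling 1 of 6 passed, beside 49.2%, and between ovary and seedling 1 of 6, beside 51.9%. SEC5A (AT1G76850) encodes a core subunit of the complex and had 1279.9, 1378 and 1010.4 in stigma, 792, 928, 805 and 947 in ovary and 828, 785, 793 and 801 in seedling. Stigma lay above every other array, by 0.48 (SE 0.14, adjusted p = 0.0165) over ovary and 0.59 (SE 0.14, adjusted p = 0.00327) over seedling. SEC15A (AT3G56640), for a subunit that in yeast binds a Rab GTPase on the vesicle, had 294, 247, 268 and 250.5 in ovary, 189, 180.2 and 158 in stigma and 189, 161, 166 and 126 in seedling. Ovary lay above both other tissues on every array, by 0.68 (SE 0.16, adjusted p = 0.00338) over seedling, and stigma minus ovary was −0.55 (SE 0.17, adjusted p = 0.0261). These differences of SEC5A and SEC15A passed the adjusted p but are under 2-fold.

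The other exocyst genes had no adjusted p under 0.05 in any comparison in the fit without blocks. SEC6 (AT1G71820) ranged from 859.6 to 1404 over all arrays, and its stigma minus ovary difference was 0.15 with a 95% interval of −0.24 to 0.54. SEC10 (AT5G12370) had 1250.1, 1348 and 1282 in stigma, above all ovary arrays (801 to 1055) but inside the seedling range (831 to 1413). SEC15B (AT4G02350) ranged from 362 to 862, with its lowest and highest values both in seedlings. SEC5B (AT1G21170) was dim, from 48.2 to 248, and passed 144.2 on 5 of 11 arrays, with overlapping tissues. With chip lot as a block, SEC5B was called lower in stigma than in seedling (−1.16, adjusted p = 0.00986, beside −0.57 without the block). Its difference was −1.87 within lot 1, with 1 stigma and 1 seedling array, and −0.66 within lot 2, also with 1 seedling array. The same block gave stigma minus seedling an adjusted p of 0.00828 for SEC10 (0.56) and 0.0483 for SEC6 (0.47), and stigma minus ovary one of 0.0215 for SEC10 (0.41), all under 2-fold.

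SEC1B (AT4G12120), a relative of the SM protein KEULE that acts with plasma membrane SNAREs, had 297, 444 and 234 in stigma, 172, 196, 184 and 100.3 in ovary and 158, 144, 193 and 208 in seedling. Stigma lay above the other tissues without overlap. The difference was 0.92 (SE 0.26, adjusted p = 0.0136) over ovary and 0.79 (SE 0.26, adjusted p = 0.0202) over seedling, and neither reached 2-fold. The difference from ovary was called in 6 of 25 alternatives, and that from seedling with chip lot as a block (1.01, adjusted p = 0.0132). SEC22 (AT1G11890), a SNARE of the route between endoplasmic reticulum and Golgi, ranged from 1069 to 1780.5, with its lowest and highest values both in stigma. Its stigma minus ovary difference was 0.092 with a 95% interval of −0.24 to 0.43. RAB6A (AT2G44610), a Golgi Rab also named RABH1b, had 1112 ± 60.9 (SD, n = 3) in stigma and 1099 ± 214 (SD, n = 4) in ovary, a difference of 0.036 with a 95% interval of −0.33 to 0.41. VPS9B (AT5G09320), a relative of the activator of endosomal Rab GTPases, had 136, 127 and 173 in stigma, 210.4, 139.7, 267 and 169 in ovary and 222, 324, 376 and 232 in seedling. Stigma lay below every seedling and ovary overlapped both, and the stigma minus seedling difference was −0.89 (SE 0.24, adjusted p = 0.00796).

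The 2 plastid Sec genes share the name but not the route, since they encode parts of the Sec translocase inside plastids. SECE1 (AT4G14870) had 810.2, 901 and 969.9 in stigma, 1072, 697, 1004 and 1326 in ovary and 2011, 1974, 1776 and 1707 in seedling. All seedlings lay above all pistil arrays, and the stigma minus seedling difference was −1.05 (SE 0.18, adjusted p = 0.000357), which was called. Ovary minus seedling was −0.89 (SE 0.17, adjusted p = 0.000734), under 2-fold. The call ended with the GAPDH ratio as a covariate (−0.63, adjusted p = 0.137), with the larger pseudocount (−0.95) and without stigma 1 (−0.98). The 4 green tissue genes, LHCB4.2, PRK, PSBW and SBPASE, had summed signals of 16833 to 19053 in stigma, 13848 to 16932 in ovary and 44294 to 49265 in seedling, highest in seedling like SECE1, and their part in its difference was not tested. SECA2 (AT1G21650) ranged from 107 to 184 and had no adjusted p under 0.05.

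**Figure D5:**
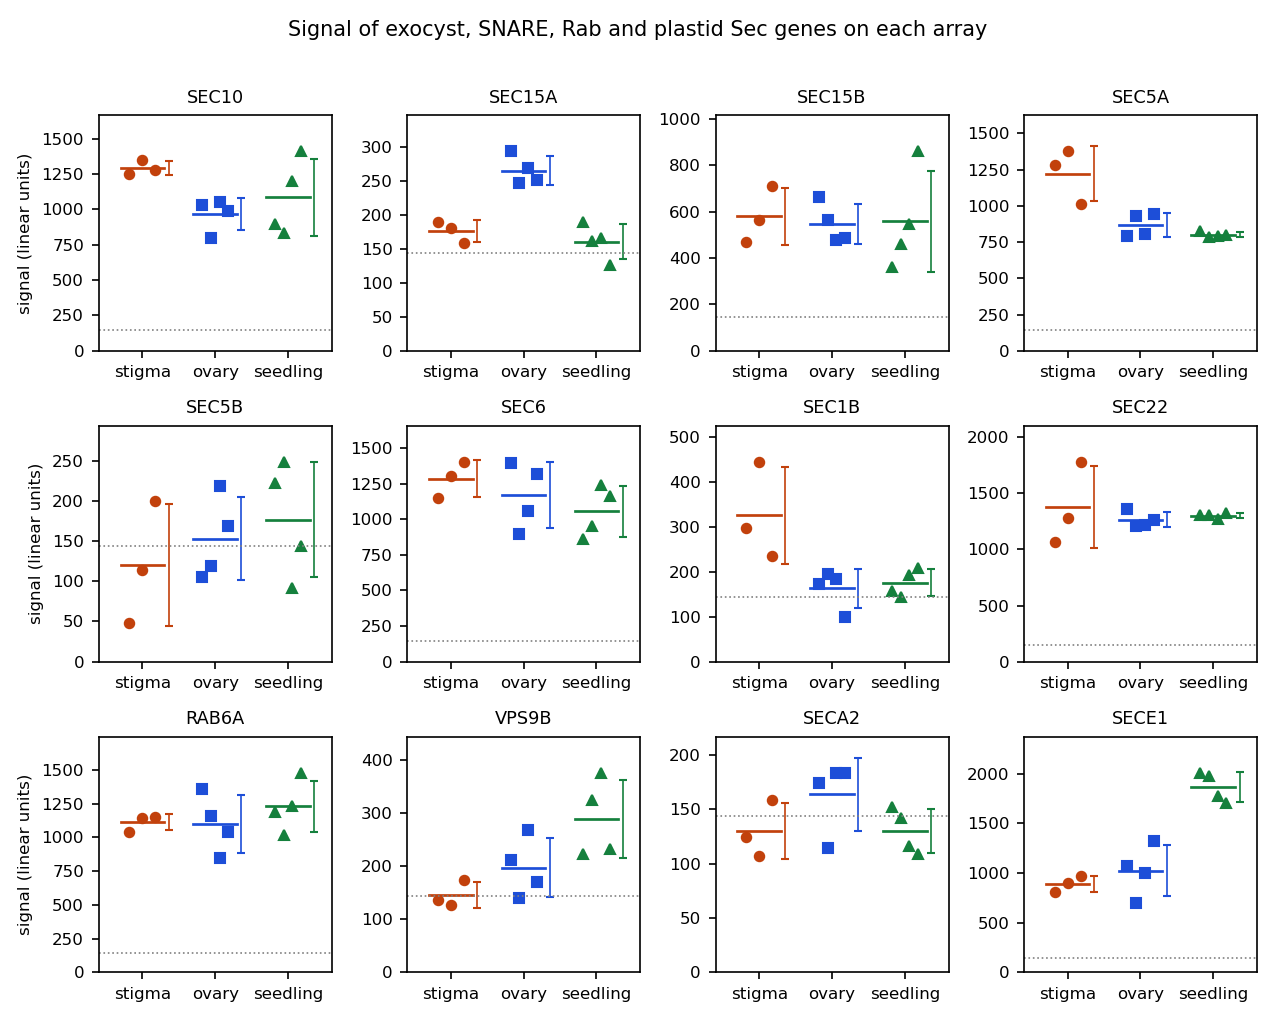
Each panel shows the signal (linear units, axis from 0) of 1 of 12 exocyst, SNARE, SM, Rab and plastid Sec genes on every array, with the tissue mean as a line, the standard deviation as the bar and the filter of 144.2 as a dotted line. SEC5A and SEC1B are highest in stigma, SEC15A is highest in ovary and SECE1 is highest in seedling.

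A list of 155 further trafficking symbols matched 10 probe sets with 1 gene, all of them tested. None of the 10 was called in any comparison, and 1 of them, CHC1 (AT5G14170), is the gene also named BAF60 and not that of clathrin. With the adjusted p alone, 2 were higher and 1 lower in stigma than in ovary, 2 were higher in stigma than in seedling, and 2 were higher and 1 lower in ovary than in seedling. Over all tested probe sets, 34.7%, 49.2% and 51.9% passed in these 3 comparisons, and 15.8%, 26.1% and 22.8% were called. The genes named next were chosen after their values were seen. TPLATE (AT3G01780), of the adaptor complex of plant endocytosis, had 687, 722 and 640.3 in stigma, 563, 503, 367 and 387 in ovary and 340.4, 386, 357 and 467 in seedling. Its stigma arrays lay above all others, by 0.59 (SE 0.17, adjusted p = 0.0185) over ovary and 0.80 (SE 0.17, adjusted p = 0.00186) over seedling. SNF7.1 (AT4G29160), an ESCRT-III subunit gene, differed by 0.66 (SE 0.16, adjusted p = 0.00694) between stigma and ovary, and SLY1 (AT4G24210), an SM protein gene, by −0.68 (SE 0.13, adjusted p = 0.00145). The other ESCRT genes matched, ELC and SNF7.2, differed by 0.44 (SE 0.26, adjusted p = 0.209) and 0.49 (SE 0.25, adjusted p = 0.148). EXO84B (AT5G49830), the only other exocyst gene matched, had 797 ± 88.7 (SD, n = 3) in stigma and 799 ± 72.5 (SD, n = 4) in ovary, a difference of −0.004 with a 95% interval of −0.38 to 0.37.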

How the data were processed

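Total RNA of stigma, ovary and seedling was measured on 11 ATH1 arrays. The deposited values are linear intensity values for 22810 probe sets. Their trimmed mean was 500.03 to 500.04 on every array, so the authors had scaled the arrays, with software not given in the sources used here. Deposited run files are of another kind (other) and gave only scanning period and chip lot. The 64 control probe sets were set aside, which left 22746, and 15524 passed the filter. No further scaling was done. R 4.3.3 with limma 3.58.1 fitted a mean for each tissue and a variance trend (8 residual and 5.19 prior degrees of freedom), and p-values were adjusted by Benjamini-Hochberg over all tested probe sets. The fit was run on simulated data for stigma and ovary with independent errors. These data held no effect of scanning period, chip lot or RNA quality, so they do not bear on those limits. Gene names come from the supplied platform annotation, which gives several genes for 503 probe sets and does not list 8730. All 30 members matched RefSeq loci. The labels do not say that arrays of a tissue came from separate cultures, so p-values measure only the spread among these samples, possibly technical. The number of arrays limits precision. Called members, and per role the one with the highest mean signal and the one with the largest difference, were named by rule. The other members were added, so that all are accounted for, after their values were seen. Members and lists were chosen with earlier results of these data known. Alternatives covered the pseudocount (the 40th percentile), the filter, scaling, blocks for replicate number, scanning period and chip lot, an RNA quality covariate and left-out arrays. They overlap. Between stigma and ovary, fits within a period and within the matching chip lot give the same differences. Leaving out a seedling array does not change a stigma minus ovary difference. No sequences were used.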

Additional observations from a re-analysis of the deposited data

Results flagged for a closer look

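SECA2 on ovary 2 stood apart from the other ovary arrays, with a signal of 114 against 175 to 184 on the others, a gap of 0.891 of the range on the log2 scale. Of the 56 sets of 4 ovary or 4 seedling arrays that were looked at over the tested members, it was the only 1 apart, and chance alone sets apart about 5% of such groups.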

How the results depend on the processing

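The 2 members called higher in stigma than in ovary became 1 with the larger pseudocount, 1 with the RNA quality covariate, 5 with equal array medians, 5 with quantile scaling, 4 with scanning period as a block, 6 within period B and within chip lot 2, 4 without stigma 1, ovary 1 and seedling 4 together, 9 with no fold threshold, and 1 to 5 with single arrays left out (1 without ovary 3 or ovary 4, 4 without ovary 1, 5 without ovary 2 or stigma 3). The 1 called lower became 0 with the larger pseudocount, with quantile scaling and within period A and chip lot 1, and 2 with no fold threshold. Those higher in stigma than in seedling (2) became 5 with chip lot as a block, 5 and 4 within lots 1 and 2, 8 with no fold threshold and 2 to 4 with single arrays left out (4 without stigma 3 or seedling 4). Those lower (3) became 0 with the larger pseudocount, 1 with the RNA quality covariate and 1 to 3 with single arrays left out (1 without stigma 1). For ovary and seedling, the 1 higher became 4 with no fold threshold. The 1 lower became 0 with the larger pseudocount, 2 with no filter, with equal medians and within lot 1, 4 with no fold threshold, and 1 to 2 with single arrays left out (2 without ovary 4). The median difference of stigma minus ovary moved from 0.09 to 0.18 with equal medians, 0.27 within period B and lot 2, 0.33 with the RNA quality covariate, 0.26 without the 3 arrays, and 0.050 to 0.22 with single arrays left out. That of stigma minus seedling moved from 0.08 to 0.28 with the stricter filter, 0.30 with the covariate and 0.19 without the 3 arrays. That of ovary minus seedling moved from −0.13 to −0.27 with equal medians, 0.021 with lot as a block, and 0.064 and −0.034 within lots 1 and 2. Over 2045 recomputed member differences, 102 changed sign, none of them among those with an adjusted p under 0.05. Of differences named here, stigma minus ovary changed sign for RAB6A (−0.26 within period A and lot 1, and −0.082 to 0.14 with single arrays left out) and SEC22 (−0.26 within both, and −0.11 to 0.26). It also did so for SECE1 (0.088 with the covariate), PRA1.B6 (−0.029 to 0.26) and VPS46.2 (0.078 with equal medians, 0.057 with the replicate block, and −0.055 to 0.004). For PRA1.H it was 0.12 within period B and lot 2, beside −0.25 in the fit without blocks. The largest difference whose sign changed was 0.57 in size, that of PRA1.H between stigma and seedling. The replicate block raised the count of members higher in stigma than in ovary to 4. Titles share numbers, and same-numbered arrays of different tissues had correlations of −0.079 to 0.257. Stigma 1 had 0.216 with ovary 1 and 0.255 with ovary 2, and stigma 3 had 0.257 with ovary 3 and 0.25 with ovary 4. Those arrays also share scanning periods, so these values cannot tell whether same-numbered arrays are paired. Between stigma and ovary, period A and lot 1 hold the same arrays, as do period B and lot 2, so their values are not separate results. Fits within a lot rest on 1 seedling array, and those within period A or lot 1 on 1 stigma array. The causes of the changes in this section were not tested.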

Other observations

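RefSeq synonyms give 12 further probe sets a name of the same families under another symbol, 4 of them among the further trafficking genes above, and they were taken up after their values were seen. Of the 12, 10 were tested and 1 was called, PRA8 (AT3G13720), a PRA1 gene also named PRA1.F3. Among all tested probe sets, 15.8% were called between stigma and ovary, 26.1% between stigma and seedling and 22.8% between ovary and seedling. Its signal was 912, 868 and 681 in stigma, 539, 613, 442 and 395 in ovary and 986, 812, 1556 and 1713 in seedling. Ovary lay below all other arrays, and ovary minus seedling was −1.27 (SE 0.23, adjusted p = 0.00045) in limma. PRA7 (AT1G55190), also named PRA1.F2, had 997, 1255 and 1088 in stigma, 583, 474, 680.0 and 514 in ovary and 764, 804, 798 and 905 in seedling. The 3 tissues did not overlap, and stigma minus ovary was 0.97 (SE 0.15, adjusted p = 0.000274), just under 2-fold. The order of tissues for PRA7 was stigma, seedling, ovary, unlike that of PRA1.B4. ARA6 (AT3G54840), a plant endosomal Rab also named RABF1, had 1575, 1724 and 1631 in stigma, 1610.3, 1618, 1630.2 and 1674 in ovary and 1025, 1004, 1281 and 1330.1 in seedling. Both pistil parts lay above all seedlings, by 0.51 (SE 0.13, adjusted p = 0.00611) for stigma and 0.50 (SE 0.12, adjusted p = 0.00406) for ovary, both under 2-fold.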
